A study of Mus musculus with 6 samples.

Results

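The genes described here encode the coat of lipid droplets and the lipases that empty them, with the regulators of those lipases. They are 10 genes taken by name from the 56980 genes of the count table, in which all 10 had a row, and 9 passed the low-count filter. Lipid droplets are the cytoplasmic stores of triglyceride and sterol ester that a cell fills when fatty acid is plentiful and empties when it is needed. Their surface is covered by perilipins, a family of coat proteins encoded by *Plin1* to *Plin5*, and their triglyceride is broken down in sequence by adipose triglyceride lipase (*Pnpla2*), hormone-sensitive lipase (*Lipe*) and monoacylglycerol lipase (*Mgll*). *Abhd5* encodes the co-activator of adipose triglyceride lipase and *G0s2* its inhibitor. In marrow stromal cells, which can form osteoblasts or adipocytes, *Plin2* is the coat gene of cells with small droplets, whereas *Plin1* belongs to the coat of mature fat cells.

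The cells were mesenchymal stem cells (MSCs) of the bone marrow (BM) of female OVX mice, that is, mice whose ovaries were removed at 8 weeks of age. After depletion of their own gut microbiota with antibiotics, recipients of both groups received fecal microbiota transplantation (FMT) for 8 weeks. The donors, which the study calls osteoporotic or OVX mice, were sedentary for the TranspCtrl group (3 samples). For the TranspExer group (3 samples) the donors had been trained on a treadmill for 8 weeks. Marrow was flushed and cultured for 7 days with repeated washes, and no sorting step is described. The mouse strain is not given in the sources used here, nor whether each library came from its own mouse or culture, so p-values measure the spread between these samples, which may be technical. The comparison asks how the transcripts of droplet storage and breakdown in recipient MSCs differed between the donors' histories.

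Total counts lay between 17647638 and 21319166 per library, so that 3 counts equalled 0.139 to 0.174 CPM (counts scaled to library size with the TMM factors of edgeR). These floors cover counting error only. The library of TranspCtrl replicate 1 stood apart from the others of its group, with a mean chi-square per gene of 59.2 and 54.0 against replicates 2 and 3, compared with 3.79 between those replicates and 4.43 to 7.82 within the TranspExer group. All 10 stromal markers examined were detected, and 8 of them were lower in TranspExer. Of the 10, 3 were lower past both thresholds for differentially expressed genes (DEGs), where 5.28% of all tested genes were. The 10 summed to 11628.4, 19414.9 and 18693.7 CPM in replicates 1, 2 and 3 of TranspCtrl. In TranspExer they summed to 12672.5 to 13900.6 CPM, so the groups overlapped. Markers of macrophages, neutrophils, B cells and endothelium were also present, so the libraries held RNA of more than stromal cells. In such bulk samples, fewer cells of a type and less RNA per cell cannot be told apart.

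Of the 10 genes, 4 were upregulated past both DEG thresholds (adjusted p-value under 0.05 and at least a 2-fold change) in the TranspExer group, namely *Plin1*, *Plin2*, *Pnpla2* and *Mgll*. *Plin1* passed the low-count filter (0.511 CPM in 3 samples) only through the TranspExer samples and so had to be higher there, which leaves 3 of the 8 members that were above it in both groups. None was downregulated by edgeR, DESeq2 or limma-voom. At an unadjusted p-value under 0.05 in edgeR, 8 of the 9 tested members were higher and 0 lower (7 of 8 without *Plin1*), where 22.3% of all tested genes were higher and 22% lower. The background was 3.5% of all 15190 tested genes for upregulation, 5.28% for downregulation and 8.78% for either. Of the other members, *Plin5* was below the low-count filter. *Plin3*, *Plin4*, *Lipe*, *Abhd5* and *G0s2* did not pass the adjusted p-value in edgeR with that filter and all 6 samples. The median log2 fold change was 0.52 over the 9 tested members and 0.40 over those 8, beside -0.02 for all tested genes. At the adjusted p-value alone the same number of members was higher, 4, where 16.6% of all tested genes were. Without TranspCtrl replicate 1 that number was 7, where 22.1% of all genes tested then were higher. Without it, 3 members passed both thresholds, since the fold of *Pnpla2* then fell below 2.

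The stretches of DNA just upstream of the 4 upregulated genes are shown to give the sequence context of these members. They come from RefSeq on GRCm38.p6 and end before the outermost start that RefSeq or GENCODE M21 gives for the gene. They are written 5' to 3' on the gene's own strand, and capitals mark matches on either strand to AGGTCA (the half-site of nuclear receptors such as PPARγ), GGGCGG (the GC box) or CCAAT. The windows are chr7:79732904-79733026 on the minus strand, chr4:86670061-86670309 on the minus strand, chr7:141454938-141455187 on the plus strand and chr6:88724162-88724411 on the plus strand.
Plin1: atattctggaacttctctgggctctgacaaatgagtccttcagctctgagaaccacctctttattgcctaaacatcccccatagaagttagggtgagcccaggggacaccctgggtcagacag
Plin2: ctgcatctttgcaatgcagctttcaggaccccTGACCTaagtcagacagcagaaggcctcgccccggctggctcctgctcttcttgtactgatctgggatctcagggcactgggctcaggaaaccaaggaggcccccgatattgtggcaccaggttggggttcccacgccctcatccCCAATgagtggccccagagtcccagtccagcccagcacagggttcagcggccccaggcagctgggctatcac
Pnpla2: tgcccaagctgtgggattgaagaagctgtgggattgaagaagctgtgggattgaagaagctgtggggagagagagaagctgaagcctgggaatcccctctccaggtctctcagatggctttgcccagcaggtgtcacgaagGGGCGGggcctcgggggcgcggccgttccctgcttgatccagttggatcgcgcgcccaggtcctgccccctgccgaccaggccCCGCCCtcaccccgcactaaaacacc
Mgll: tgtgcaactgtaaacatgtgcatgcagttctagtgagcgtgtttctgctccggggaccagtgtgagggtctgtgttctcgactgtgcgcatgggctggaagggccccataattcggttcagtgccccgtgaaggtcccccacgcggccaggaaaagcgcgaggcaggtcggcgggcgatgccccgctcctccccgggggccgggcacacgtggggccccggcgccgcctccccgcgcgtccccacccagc

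In the *Plin2* window there was 1 half-site and 1 CCAAT, in the *Pnpla2* window 2 GC boxes, and in the *Plin1* and *Mgll* windows no match to these letters. The *Plin1* window was short, 123 bases, because GENCODE starts the gene farther upstream than RefSeq does. Matches were then counted over the full 250 bases before each RefSeq start, including starts that are not printed. All 10 members had an entry, with 13 windows in all, of which 11 reach into or lie within the gene as GENCODE draws it. The half-site occurred in 3 of these 13 windows (1 each of *Plin2*, *Abhd5* and *Plin5*), the GC box in 8 and CCAAT in 4, whereas 14.0%, 32.7% and 33.8% of all 32851 windows of that length held them. The direct repeat of 2 such half-sites with 1 base between them, which therefore contains the half-site, was in none of the 13 windows and in 0.0335% of all windows. These are matches of letters only and say nothing of binding.

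Among the coat genes, *Plin2* was the most abundant and rose the most in absolute terms. *Plin2* (ENSMUSG00000028494, chr4:86648386-86670060, minus strand, GRCm38) stood at 207, 186 and 187 CPM in replicates 1, 2 and 3 of TranspCtrl and at 611, 577 and 585 CPM in those of TranspExer. The lowest TranspExer sample was thus far above the highest TranspCtrl sample, and the spread within each group was small. The rise was 3.05-fold, or 1.61 on the log2 scale with an SE (standard error) of 0.08 (adjusted p = 3.45e-05 by edgeR). With any single sample left out, it stayed between 1.58 and 1.66. Of all 15190 tested genes, *Plin2* ranked 329 by mean level per length.

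*Plin1* (ENSMUSG00000030546, chr7:79720218-79732903, minus strand), whose protein shields the droplets of fat cells and holds Abhd5 away from its lipase until hormones release it, was nearly absent from the TranspCtrl samples. Its counts were 0, 0 and 3 in the TranspCtrl libraries, against 25, 34 and 31 in the TranspExer libraries. Every TranspExer library was above every TranspCtrl library, but at a low level of 1.61 ± 0.339 CPM (SD, n = 3). The summed counts, 3 against 90, gave a ratio of 32.7 with an exact 95% interval of 10.8 to 161, which covers counting error only. The adjusted p-value from edgeR was 0.00146, for a gene that entered the test only through the TranspExer samples, and 8.62e-06 with no filter beyond 1 count. The fitted log2 fold change of 4.87 depends on the prior count added to counts of 0, and moved to 7.96 without TranspCtrl replicate 3, the library that held the 3 counts.

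*Plin3* (ENSMUSG00000024197, chr17:56277476-56292873, minus strand), a perilipin that is kept in the cytosol and moves onto forming droplets, was expressed in all samples at a nearly constant level. It had 62.1, 62.5 and 63.6 CPM in TranspCtrl and 72.7, 69.2 and 72.9 CPM in TranspExer. The samples did not overlap, yet the difference was only 1.14-fold, a log2 fold change of 0.19 with a 95% interval of 0.04 to 0.35 before adjustment, and did not pass (adjusted p = 0.0629 from edgeR). Without TranspCtrl replicate 1 the adjusted p-value was 0.0201 at a log2 fold change of 0.18.

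*Plin4* (ENSMUSG00000002831, chr17:56100591-56109803, minus strand), whose protein coats small droplets in fat and muscle, had 6.35, 7.39 and 5.49 CPM in TranspCtrl and 8.0, 8.31 and 11.2 CPM in TranspExer. TranspExer replicate 3 was the highest sample, and the lowest TranspExer sample was close to the highest TranspCtrl sample. The log2 fold change of 0.52 (95% interval 0.11 to 0.93 before adjustment) had an adjusted p-value of 0.056 from edgeR, 0.0477 from DESeq2 and 0.0421 from edgeR with no filter beyond 1 count, on either side of the 0.05 threshold, and the change of 1.44-fold was short of 2-fold. It was 0.0317 without TranspCtrl replicate 1 and 0.208 without TranspExer replicate 3. *Plin4* is overlapped on the opposite strand by *Hdgfl2*, whose mean count was 885 against 152 for *Plin4*, and the strand setting of the counting is not stated.

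*Plin5* (ENSMUSG00000011305, chr17:56111601-56117596, minus strand), the perilipin of oxidative tissues such as heart, lies 1797 bases from *Plin4*. Its counts were 2, 1 and 0 in the TranspCtrl libraries, against 1, 2 and 8 in the TranspExer libraries, and 8 of the 11 TranspExer counts came from replicate 3. The ratio of the summed counts was 3.99, with an exact 95% interval of 1.05 to 22.3 for counting error only. With the filter removed, edgeR gave *Plin5* an adjusted p-value of 0.329, so no difference was detected at these low counts. That test also takes in the spread between libraries, which the interval leaves out.

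**Figure D1:**
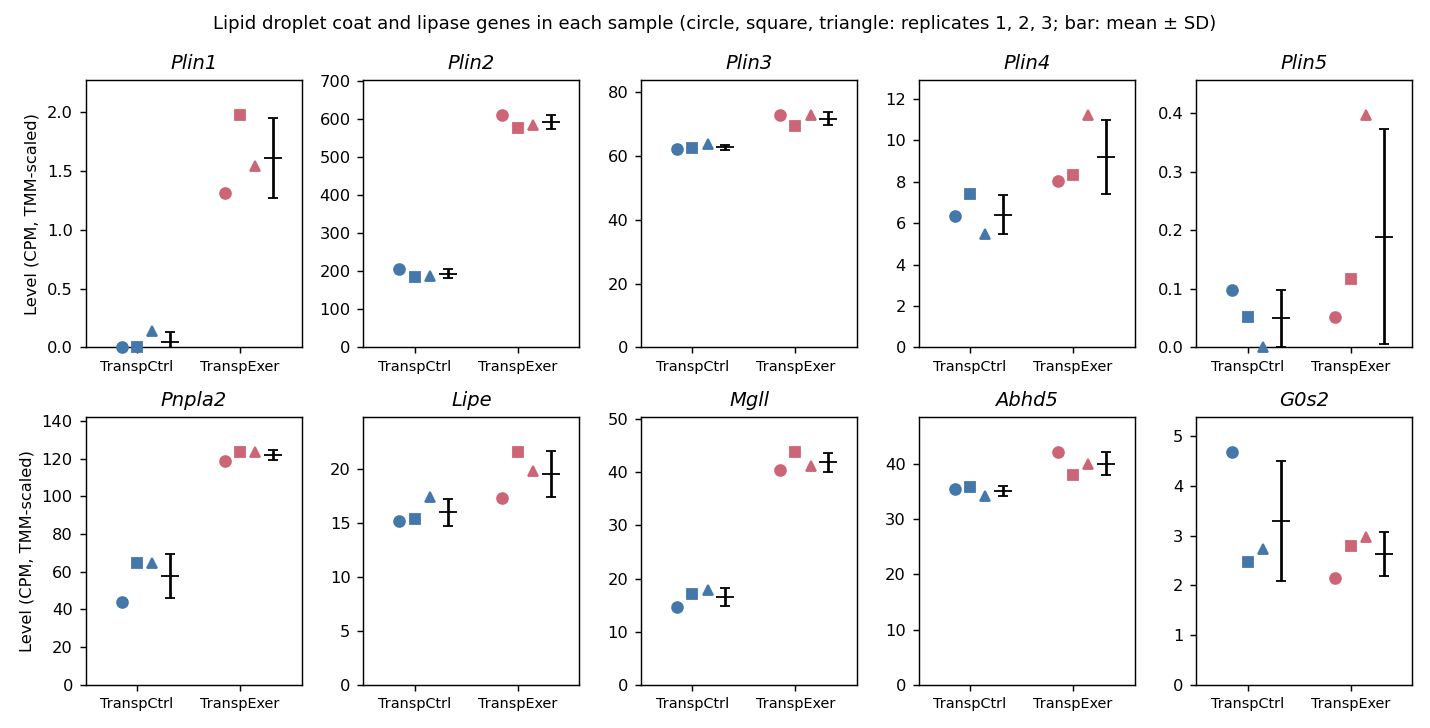
Level of each of the 10 genes (y axis, TMM-scaled CPM from 0, with its own scale per panel) in the 3 TranspCtrl samples (blue) and the 3 TranspExer samples (red), with circle, square and triangle for replicates 1, 2 and 3 and black bars for mean ± SD. *Plin1*, *Plin2*, *Pnpla2* and *Mgll* show a wide gap between the groups, and *G0s2* and *Pnpla2* show TranspCtrl replicate 1 away from the other samples of its group.

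Of the lipases, *Pnpla2* and *Mgll* rose and *Lipe* did not pass. *Pnpla2* (ENSMUSG00000025509, chr7:141455198-141460743, plus strand), which cleaves the first fatty acid from triglyceride, had 44.1, 64.5 and 64.7 CPM in TranspCtrl and 119, 123 and 123 CPM in TranspExer. All TranspExer samples were far above the TranspCtrl samples, of which replicate 1 was the lowest. The rise was 2.11-fold, or 1.08 on the log2 scale with an SE of 0.14 (adjusted p = 0.00131 by edgeR). Without TranspCtrl replicate 1 the log2 fold change was 0.92 with an adjusted p-value of 4.8e-08, and with scaling by library size only it was 0.998, so the rise held but the 2-fold limit was not met.

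*Mgll* (ENSMUSG00000033174, chr6:88724412-88828360, plus strand), which frees the last fatty acid and also degrades the endocannabinoid 2-arachidonoylglycerol, had 14.6, 17.1 and 17.9 CPM in TranspCtrl and 40.5, 43.8 and 41.2 CPM in TranspExer. The gap between the groups exceeded the range within either of them. The rise was 2.53-fold, or 1.34 on the log2 scale with an SE of 0.10 (adjusted p = 0.000101 by edgeR), and it stayed between 1.26 and 1.40 with single samples left out. When the 2-fold change was itself tested in the model, *Mgll*, *Plin1* and *Plin2* passed (adjusted p = 0.0385, 0.00968 and 0.0012) and *Pnpla2* did not.

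*Lipe* (ENSMUSG00000003123, chr7:25379527-25398710, minus strand), which acts on diacylglycerol between these lipases and also on sterol esters, had 15.2, 15.4 and 17.4 CPM in TranspCtrl and 17.3, 21.6 and 19.8 CPM in TranspExer. The groups overlapped, since TranspCtrl replicate 3 was above TranspExer replicate 1. The log2 fold change was 0.29 with a 95% interval of 0.02 to 0.55 before adjustment (adjusted p = 0.092 from edgeR), so the interval did not reach a 2-fold rise. *Lipe* overlaps *4732471J01Rik* on the opposite strand, which had a mean count of 67.6 against 347 for *Lipe*.

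The regulators of adipose triglyceride lipase did not pass. *Abhd5* (ENSMUSG00000032540, chr9:122351608-122381524, plus strand) had 35.4, 35.8 and 34.1 CPM in TranspCtrl and 42.2, 38.1 and 40.0 CPM in TranspExer. These samples did not overlap, but the log2 fold change was 0.19 (95% interval 0.01 to 0.37 before adjustment, adjusted p = 0.0908 from edgeR), and the adjusted p-value was 0.0384 without TranspCtrl replicate 1.

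*G0s2* (ENSMUSG00000009633, chr1:193272161-193273217, minus strand) had 4.69, 2.46 and 2.74 CPM in TranspCtrl and 2.15, 2.79 and 2.98 CPM in TranspExer. TranspCtrl replicate 1 was the highest sample and the remaining samples of both groups overlapped. The log2 fold change was -0.32 (95% interval -0.97 to 0.33, adjusted p = 0.407 from edgeR). It was 0.02 without TranspCtrl replicate 1 (adjusted p = 0.962), so its sign rested on that library. *G0s2* is overlapped on the opposite strand by *Lamb3*, with a mean count of 16.0 against 58.7 for *G0s2*.

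Counted by whether all TranspExer samples exceeded all TranspCtrl samples, 7 of the 9 tested members were separated (*Plin1*, *Plin2*, *Plin3*, *Plin4*, *Pnpla2*, *Mgll* and *Abhd5*, or 6 of 8 without *Plin1*), where 27.2% of all tested genes were separated in that direction and 52.4% in either. For *Plin3*, *Plin4* and *Abhd5* the separation came with changes below 1.5-fold.

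**Figure D2:**
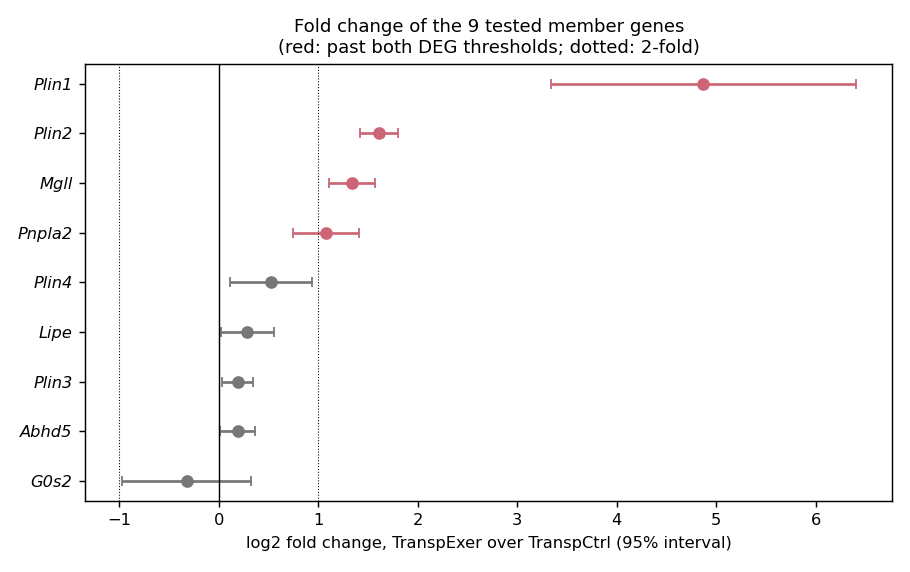
log2 fold change of TranspExer over TranspCtrl (x axis) for the 9 tested genes (y axis), with points for the edgeR estimate, bars for its 95% interval before adjustment, red for genes past both DEG thresholds and dotted lines at a 2-fold change. *Plin2* at 1.61, *Mgll* at 1.34 and *Pnpla2* at 1.08 lie to the right of the line, *Plin1* has the widest interval, and that of *G0s2* spans 0.

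The order of levels between genes was read per length, as TPM, computed from the counts and the gene lengths in the table. In TranspCtrl the order was *Plin2* (215 ± 12.6 TPM, SD, n = 3), *Pnpla2* (46.2 ± 9.58), *Plin3* (36.1 ± 0.428), *Mgll* (26.5 ± 2.75), *Abhd5* (23.4 ± 0.88), *Lipe* (9.04 ± 0.623), *G0s2* (7.95 ± 2.89) and *Plin4* (2.12 ± 0.344), with *Plin5* and *Plin1* below 0.2 TPM in every sample. The samples of *Pnpla2* and *Plin3*, of *Mgll* and *Abhd5*, and of *Lipe* and *G0s2* overlapped, so these neighbours were not separated. In TranspExer, *Plin2* stood at 643 ± 9.17 TPM and *Pnpla2* at 95.4 ± 3.63, and *Mgll* (65.7 ± 3.59) was above *Plin3* (40.3 ± 1.04). *Abhd5* (26.0 ± 0.959), *Lipe* (10.8 ± 1.35), *G0s2* (6.23 ± 1.13), *Plin4* (2.97 ± 0.606), *Plin1* (1.17 ± 0.262) and *Plin5* (0.196 ± 0.192) followed, and no neighbours in this order overlapped.

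The perilipin transcripts were mostly *Plin2* in both groups. Its share of the summed perilipin level per length came to 85.8%, 84.3% and 84.4% in replicates 1, 2 and 3 of TranspCtrl, against 93.7%, 93.6% and 93.2% in those of TranspExer. The share of *Plin3* was 14.3 ± 0.816% (SD, n = 3) in TranspCtrl and 5.87 ± 0.127% (SD, n = 3) in TranspExer. The shares of *Plin2* and *Plin3* thus differed without overlap, while the level of *Plin3* itself was not lower in TranspExer. *Plin1* made up 0.171 ± 0.0406% of the TranspExer perilipin level and *Plin4* 0.432 ± 0.0878%, so even in TranspExer the fat-cell perilipin was a trace of the family.

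**Figure D3:**
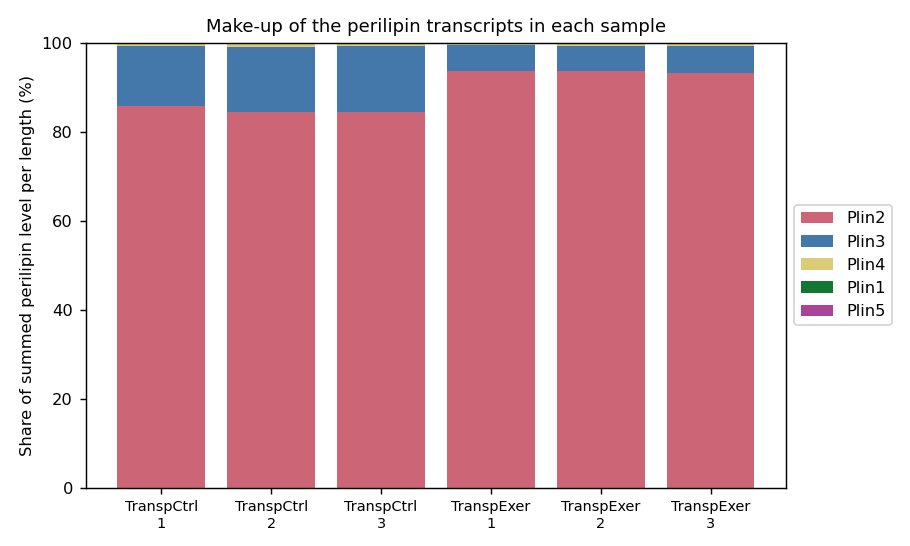
Share of each perilipin in the summed perilipin level per length (y axis, percent from 0 to 100) in each of the 6 samples (x axis), with stacked bars coloured by gene. *Plin2* fills 84.3% to 85.8% of the TranspCtrl bars and 93.2% to 93.7% of the TranspExer bars, *Plin3* fills most of the rest, and *Plin1* and *Plin5* are too small to be seen.

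Ratios between members within a sample do not depend on the scaling of the libraries. They are ratios of counts with no length scaling, so each is compared between groups and none gives the relative level of its genes. For the inhibitor and its lipase, *G0s2* counts were 10.6%, 3.82% and 4.24% of *Pnpla2* counts in replicates 1, 2 and 3 of TranspCtrl, against 1.80%, 2.26% and 2.41% in those of TranspExer. All TranspExer ratios were below all TranspCtrl ratios, with a difference of -1.37 on the log2 scale and -0.91 without TranspCtrl replicate 1. The *Pnpla2* level, not that of *G0s2*, passed the test.

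For the co-activator, *Abhd5* counts were 80.4%, 55.6% and 52.7% of *Pnpla2* counts in TranspCtrl and 35.5%, 30.9% and 32.4% in TranspExer, a log2 difference of -0.91. *Lipe* was also lower relative to *Pnpla2*, from 23.8% to 34.4% of its counts in TranspCtrl to 14.5% to 17.5% in TranspExer, a log2 difference of -0.81. *Mgll* against *Pnpla2* differed less, by 0.24 on the log2 scale, with ratios of 26.5% to 33.1% in TranspCtrl and 33.4% to 35.5% in TranspExer.

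Relative to *Plin2*, the counts of *Plin3* were 30.0% to 33.9% in TranspCtrl and 11.9% to 12.5% in TranspExer, a log2 difference of -1.42. Those of *Plin4* were 2.93% to 3.97% and 1.31% to 1.92%, a difference of -1.10, and those of *Plin1* at most 0.0744% and 0.214% to 0.343%. In each of the 7 ratios computed the groups did not overlap. The exact two-sided permutation test gave p = 0.1 for each, the smallest value that 3 samples against 3 can give. It was 0.1 after Benjamini-Hochberg adjustment, so the design could not pass a threshold of 0.05. The denominators, *Pnpla2* and *Plin2*, were themselves upregulated DEGs whose samples did not overlap. Much of the separation of the ratios was thus given in advance, and the 7 ratios are not independent. *Plin1* also entered only through the TranspExer samples, and no share over ratios of other genes was computed.

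**Figure D4:**
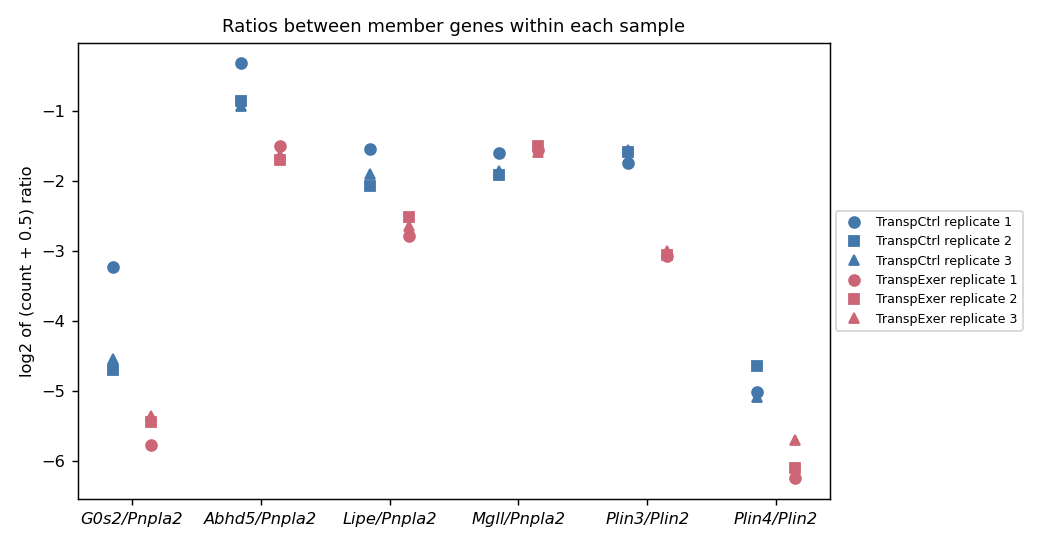
log2 ratio of counts between members within each sample (y axis, 0.5 added to each count) for 6 of the 7 ratios (x axis), in TranspCtrl (blue) and TranspExer (red), with circle, square and triangle for replicates 1, 2 and 3. *G0s2*, *Abhd5* and *Lipe* relative to *Pnpla2*, and *Plin3* and *Plin4* relative to *Plin2*, are lower in every TranspExer sample, and *Mgll* relative to *Pnpla2* is slightly higher.

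The other genes of droplet storage and breakdown were examined in 5 lists, to be read beside the 3.5% of all tested genes that were upregulated and the 5.28% that were downregulated, or at an unadjusted p-value under 0.05 the 22.3% higher and 22% lower. Of 11 tested droplet proteins outside the perilipins, none was a DEG in either direction by edgeR, DESeq2 or limma-voom. At an unadjusted p-value under 0.05, 4 were higher and 3 lower, and the median log2 fold change was -0.00. The fat-cell droplet genes *Cidea* and *Cidec* had no more than 1 count in any sample. *Hilpda*, a hypoxia-induced droplet protein that also inhibits adipose triglyceride lipase, differed by -0.16 on the log2 scale (edgeR adjusted p = 0.615).

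Of 14 tested hydrolases of other neutral lipids, 5 passed as upregulated and 0 as downregulated by edgeR (also 0 downregulated by DESeq2 and limma-voom), with 8 higher and 1 lower at an unadjusted p-value under 0.05 and a median log2 fold change of 0.37. *Lpl*, which releases fatty acids from lipoproteins outside the cell, rose by 1.72 on the log2 scale (adjusted p = 4.66e-05 from edgeR). *Lipa*, the acid lipase of the lysosome, rose from 371 to 392 CPM in TranspCtrl to 907 to 966 CPM in TranspExer, by 1.30 on the log2 scale (adjusted p = 4.96e-05). *Abhd12*, a lysophospholipase and monoacylglycerol hydrolase, rose by 1.05 (adjusted p = 8.1e-05, but 0.97 and short of the 2-fold limit with upper-quartile scaling or library size only), and *Daglb*, which makes the monoacylglycerol that *Mgll* degrades, rose by 1.53 (adjusted p = 0.000397).

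Of 21 tested genes of triglyceride and sterol ester synthesis, 1 was an upregulated and 1 a downregulated DEG, with 10 higher and 4 lower at the adjusted p-value alone and a median log2 fold change of 0.17. The share of all tested genes past the adjusted p-value alone was 16.6% higher, 15.5% lower and 32.2% in either direction. *Mogat2*, which adds a fatty acid to monoacylglycerol, rose by 1.23 on the log2 scale (adjusted p = 0.0024 from edgeR), and *Soat2*, an enzyme of cholesterol ester synthesis at 2.96 CPM in TranspCtrl, fell by 1.23 (adjusted p = 0.0119). The call of *Soat2* was lost without TranspExer replicate 2 (adjusted p = 0.0505) and without TranspExer replicate 3 (adjusted p = 0.0516), and both calls were lost with the 2-fold change tested in the model. The last enzymes of triglyceride synthesis, *Dgat1* and *Dgat2*, differed by 0.12 and 0.01 on the log2 scale (edgeR adjusted p = 0.327 and 0.966).

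Of 25 tested genes of the hormone control of lipolysis, 2 were upregulated DEGs and 1 was a downregulated DEG, with 12 higher and 3 lower at the adjusted p-value alone and a median log2 fold change of 0.38. *Npr1*, the receptor of natriuretic peptides, was counted 7, 13 and 8 times in the TranspCtrl libraries, against 31, 34 and 59 times in the TranspExer libraries (log2 fold change 2.24, adjusted p = 0.00342 from edgeR). *Aqp7*, the glycerol channel of fat cells, was counted 2, 2 and 14 times, against 24, 31 and 19 times (log2 fold change 2.16, adjusted p = 0.0306). *Hcar2*, an anti-lipolytic receptor for hydroxybutyrate and niacin, fell by 1.12 on the log2 scale (adjusted p = 0.0169). *Npr1* and *Aqp7* passed the low-count filter only through the TranspExer samples, which favours a higher level there. Neither of the 2 upregulated DEGs thus comes from the genes above the filter in both groups. *Npr1* passed the test with any single sample left out, which does not remove this selection. *Aqp7* did not pass without TranspCtrl replicate 2 or without TranspExer replicate 1, 2 or 3 (adjusted p = 0.0745, 0.0827, 0.11 and 0.0639), and its log2 fold change was 3.64 without TranspCtrl replicate 3, the library with 14 counts, and 1.75 without TranspCtrl replicate 1. Nor did *Hcar2* pass without TranspExer replicate 1 or 3 (adjusted p = 0.0712 and 0.0681), and without TranspCtrl replicate 1 the log2 fold change of *Hcar2* was -0.84, short of the 2-fold limit. None of these 3 calls held with the 2-fold change tested in the model.

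Of 17 tested transcription regulators of such genes, 3 passed as upregulated and 0 as downregulated by edgeR (also 0 downregulated by DESeq2 and limma-voom). At an unadjusted p-value under 0.05, 7 were higher and 1 lower, and at the adjusted p-value alone 5 were higher and 1 lower. The median log2 fold change was 0.35. *Nr1h3*, the liver X receptor α, had 16.7 ± 1.22 CPM in TranspCtrl and 43.7 ± 2.04 CPM in TranspExer (SD, n = 3 each), a log2 fold change of 1.39 (adjusted p = 6.19e-05 from edgeR). *Pparg*, the nuclear receptor that drives fat-cell genes, rose by 1.31 on the log2 scale (adjusted p = 7.65e-05), and *Epas1*, a hypoxia-inducible factor, rose by 1.54 (adjusted p = 0.000258). By quantitative PCR, the study reported lower mRNA of *Pparg*, *Cebpa*, *Fabp4* and *Lpl* in MSCs of the TranspExer group. The counts of *Pparg* and *Lpl* here went the other way, and the cause was not tested.

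**Figure D5:**
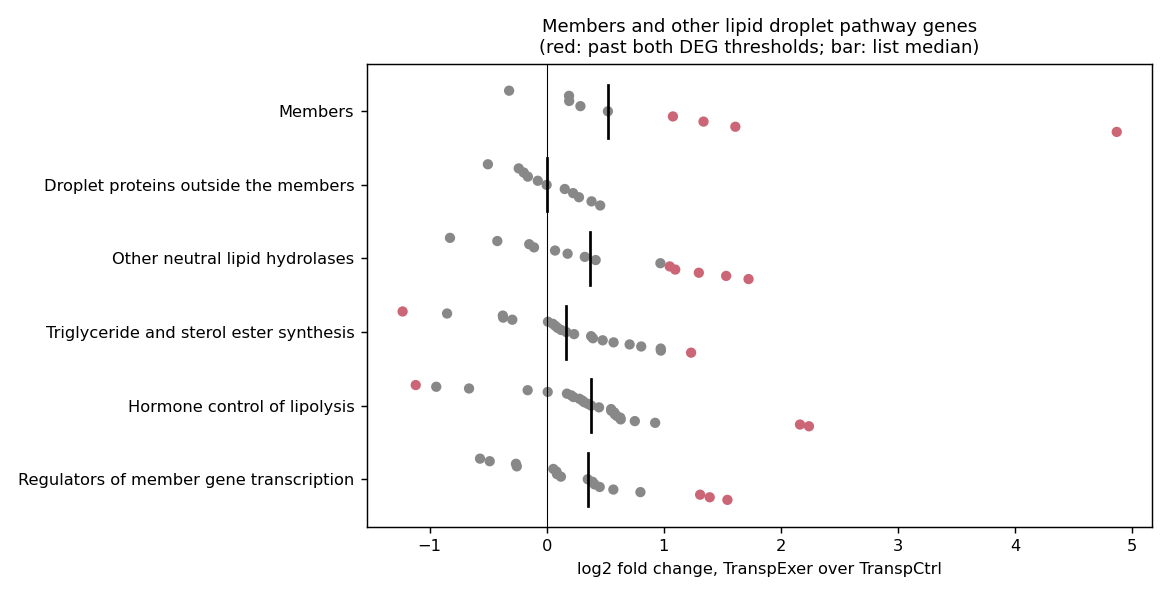
log2 fold change of TranspExer over TranspCtrl (x axis) for the 9 tested members and the tested genes of 5 lists of other lipid droplet genes (y axis), with 1 point per gene, red for genes past both DEG thresholds and a black bar for each list's median. The median of the members is 0.52, that of the other droplet proteins -0.00 and that of the other hydrolases 0.37.

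Over the 6 samples, the genes whose log2 CPM followed *Plin2* most closely among 9649 genes with at least 10 CPM were *Nr1h3*, *Atf3* and *Ctsg* (Pearson r = 0.999, 0.998 and 0.998). For *Pnpla2* they were *Selp*, *B4galt6* and *Jag1* (r between 0.9995 and 0.9997), for *Mgll* they were *Mmrn1*, *Cdk18* and *Nod1* (r = 0.999 each), and for *Plin1* they were *Syngr1*, *Gorasp1* and *Agap3* (r = 0.997, 0.996 and 0.996). For *G0s2* the closest was *Arfgap2* (r = 0.998), for *Plin3* *Slc25a12* (r = 0.997), for *Plin4* *Htt* (r = 0.987), for *Abhd5* *Pald1* (r = 0.985) and for *Lipe* *Zcchc8* (r = 0.979). The points share the same 6 libraries and a split into 2 groups, so these values describe likeness only.

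Fat-cell markers other than the members had low counts. Of 10 adipocyte markers, *Lep*, *Retn* and *Acvr1c* had 0 counts in all 6 samples, *Cidec* and *Cfd* at most 1 count, and *Adipoq* had 16 to 18 counts in TranspCtrl and 16 to 22 in TranspExer, the 1 marker that was tested (log2 fold change 0.32, adjusted p = 0.414 from edgeR). *Slc2a4* (3, 2 and 0 counts against 6, 5 and 9) and *Car3* (1, 0 and 2 against 4, 3 and 4) were higher in every TranspExer library but below the filter, as were *Adrb3* (5, 4 and 12 against 9, 7 and 15) and *Pck1* (at most 1 count), whose groups overlapped. The summed level of the 10 was 1.13 to 1.53 CPM in TranspCtrl and 2.09 to 2.24 CPM in TranspExer, without overlap, and its part in the rise of the members was not tested. Over all tested genes, 16.6% were higher and 15.5% lower at the adjusted p-value, and 3.5% were upregulated DEGs. All 10 endothelial markers were higher at the adjusted p-value, and 8 were upregulated DEGs. Their summed level was 214 to 249 CPM in TranspCtrl and 644 to 691 CPM in TranspExer, none of them was at 0, and their part in the rise of *Plin1*, *Plin2*, *Pnpla2* and *Mgll* was not tested. Of the 10 macrophage markers, 2 were higher and 2 lower at the adjusted p-value, near the shares over all tested genes. Their summed level was 8937 to 13985 CPM in TranspCtrl and 7138 to 7820 CPM in TranspExer. Of the 10 neutrophil markers, 3 were higher and 1 lower, with 3239 to 4320 CPM and 5537 to 5758 CPM, and of the 10 B cell and plasma cell markers, 9 were lower, with 4938 to 8541 CPM and 1104 to 1226 CPM. Of the 8 T and NK cell markers, 1 was higher and 1 lower, with 18.2 to 23.5 CPM and 27.7 to 32.1 CPM, and the 8 erythroid markers summed to 1.14 CPM or less in every sample.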

How the data were processed

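Bulk RNA-Seq profiles of BM MSCs came from 3 TranspCtrl and 3 TranspExer samples, grouped by the sample labels. The authors deposited 1 estimated count per gene and sample, without normalization, with between 10.1% and 12.2% of values not whole, and a gene length in bases. The labels name a stranded mRNA library kit and the study's methods a TruSeq RNA kit, so whether the libraries kept strand is not settled, and counts of *Plin4*, *Lipe*, *G0s2*, *Mgll* and *Abhd5* may hold reads of genes on the opposite strand. The submitters' processing notes name the genome build mm10, and the aligner, counting tool and strand setting are not given in the sources used here. Gene positions came from GENCODE M21 (GRCm38, the same build) by Ensembl identifier.

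Expected counts were rounded and tested across all genes in R 4.3.3 with edgeR 4.0.16 (filterByExpr, TMM, quasi-likelihood test, group as the only term) and Benjamini-Hochberg adjustment over 15190 genes. DEGs followed the study's thresholds, an adjusted p-value of 0.05 and a fold change of 2. Each SE is the size of the log2 fold change over the root of its F value, and intervals come from the t distribution with the degrees of freedom of edgeR. TPM used the deposited lengths. Ratios of counts (0.5 added) were compared by exact permutation tests in scipy 1.17.1. DESeq2 1.42.0, limma-voom (limma 3.58.1), other scalings and filters, the fold tested in the model, a replicate block and each sample left out were alternatives. The tests were checked on simulated data. No 2 libraries of a group agreed within sampling noise. The labels do not say whether equal replicate numbers are paired. Correlations between samples showed no pairing, which 3 samples per group cannot exclude.

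The members and gene lists were chosen with earlier results of these data known. The genes named are the 10 members, from each pathway list the DEGs of lowest adjusted p-value (at most 4), and per member the 3 genes with the highest correlation, of which only the closest is given for members that are not DEGs. *Hilpda*, *Cidea*, *Cidec*, *Dgat1*, *Dgat2* and the adipocyte markers were named after their values were seen. *Ldaf1* of the droplet list had no row of that name.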

Additional observations from a re-analysis of the deposited data

How the results depend on the processing

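The 4 upregulated members remained 4 under DESeq2, upper-quartile normalization, both other filters, limma-voom and the replicate block, and were 3 with library size only, with the fold tested in the model and without TranspCtrl replicate 1, each time without *Pnpla2* (range with 1 sample left out 3 to 4). At the adjusted p-value alone the number of higher members was 4, 5 with DESeq2 and with no filter beyond 1 count, 3 with the fold tested in the model, and 4 to 7 with 1 sample left out, reaching 7 without TranspCtrl replicate 1 (22.1% of all genes tested then, against 16.6%). *G0s2* changed sign without that library (log2 fold change 0.0163, range with 1 sample left out -0.49 to 0.0163). The number of upregulated genes of other hydrolases went from 5 to 3 with the fold tested in the model. That setting left no DEG (0) in either direction among genes of triglyceride and sterol ester synthesis or of hormone control. In the synthesis list, 2 genes were upregulated with the replicate block and with limma-voom, 1 to 2 with 1 sample left out, and 0 to 1 downregulated. In the hormone list, 1 gene was upregulated with at least 1 CPM in 3 samples, 1 to 3 with 1 sample left out, 2 were downregulated with upper-quartile normalization or library size only, and 0 to 1 with 1 sample left out. The fold tested in the model is stricter by construction, and the cause of the other moves was not tested. With 2 added to each count in place of 0.5, the *Plin1*/*Plin2* difference was 2.06 in place of 3.50 on the log2 scale. Without length scaling, the share of *Plin2* differed by 14.1 percentage points in place of 8.65, and that of *Plin3* by -13.3 in place of -8.41. As for pairing, deviations of samples with the same replicate number correlated at 0.02, -0.00 and 0.04, not every sample correlated best with its own number, and with the replicate block 519 genes were upregulated and 767 downregulated in place of 531 and 802. The block changed no call of a member. Depth limits *Plin1*, *Plin5*, *Npr1* and *Aqp7*, each with under 20 counts in every TranspCtrl library.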
